A study of Fukomys damarensis and Heterocephalus glaber and Mus musculus with 160 samples.

Results

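The longest domains of H3K4me3 were examined in liver and heart of 4 rodents: the naked mole-rat (Heterocephalus glaber), the Damaraland mole-rat (Fukomys damarensis), the guinea pig (Cavia porcellus) and the mouse (Mus musculus). In each of the 8 groups of species and tissue, an H3K4me3 peak was kept where it overlapped a peak of another library of the group by at least 50% of the shorter peak. Kept peaks were merged into consensus regions, and regions at most 500 bases apart were joined. The 500 longest regions of each group were taken, for the mouse from autosomes 1 to 19 only. This gave 4000 domains out of 144282 consensus H3K4me3 regions. The domains were chosen by the length of H3K4me3 in the group's own libraries, so their length and H3K4me3 fold there are a description with no test.

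H3K4me3, a trimethylated lysine of histone H3, marks gene promoters. At most promoters it covers a narrow stretch around the transcription start, and at a minority it spreads over a wide domain, which is known especially from genes that give a cell its identity. H3K27ac, an acetylated lysine of the same histone, marks active promoters and enhancers. H3K4me1 marks enhancers and also the edges of promoters. CEBPA, FOXA1, HNF4A, HNF6 and RXRA are transcription factors of hepatocytes, and TBX5 is a transcription factor of cardiomyocytes.

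All animals were wild-type adults that had received no named treatment: 5 naked mole-rats aged 13 to 17 months, 6 Damaraland mole-rats with estimated ages of 36 to 48 months, 3 guinea pigs aged 2.3 months and C57BL/6J mice aged 2 months. All were male except the Damaraland mole-rat DMR6. For the mouse the labels name 16 replicates, of which 1 is a pool of 3 animals. Pieces of whole organ were crosslinked, so each library mixes cell types, and fewer cells that carry a mark cannot be told apart from less of it in each cell. The consensus rested on 5 liver and 4 heart H3K4me3 libraries in the naked mole-rat, 2 and 5 for the Damaraland mole-rat, 3 and 3 for the guinea pig, and 4 and 6 for the mouse. A consensus of more libraries is longer by construction, so lengths were not compared between groups. Each peak list was called on a single library, and its depth in reads is unknown; the H3K4me3 lists held 14782 to 253457 peaks.

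Labelled tissues were checked by asking, for each of the 99 histone libraries, whether it had peaks in the regions that the other libraries of its mark placed in 1 tissue only. In 98 libraries a larger share of the regions of the labelled tissue held a peak than of those of the other tissue. The library labelled mouse heart H3K4me3, animal 6837, went against its label. It had a peak in 74.4% of the 2207 regions found only in liver and in 42.8% of the 3417 found only in heart. The other 5 mouse heart H3K4me3 libraries had a peak in 0.259 to 26.2% of liver-only and 28.5 to 92.6% of heart-only regions. The H3K27ac library of animal 6837 held 57.9% of heart-only against 2.39% of liver-only regions. Mouse results are therefore given with all libraries and, by a choice made after this was seen, with the H3K4me3 list of 6837 left out and its H3K27ac list kept. The cause was not tested.

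Long domains made up 2.23 to 3.76% of the consensus regions of a group and 8.65 to 10.7% of their bases. Their median length was 5029 bases in naked mole-rat liver and 4607 in heart, 5309.5 and 4985.5 for the Damaraland mole-rat, 3993 and 4561 for the guinea pig, and 5369.5 and 6239.5 for the mouse. The remaining regions had medians of 1150 to 1722 bases. Without the list of 6837 the median of the mouse heart domains was 5679.5 bases, and 83.6% of the domains were kept.

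Lengths fell steeply over the first ranks and then slowly, with no break at rank 500. Regions at rank 500 and at the next rank were 4302 and 4302 bases long in naked mole-rat liver, 3785 and 3782 in its heart, and 4430 and 4428 in Damaraland mole-rat liver. They were 4213 and 4212 in Damaraland mole-rat heart, 3366 and 3362 in guinea pig liver, 3872 and 3870 in guinea pig heart, 4454 and 4453 in mouse liver, and 5006 and 5000 in mouse heart. Domains of at least 10 kb numbered 7 and 3 in liver and heart of the naked mole-rat, 8 and 14 for the Damaraland mole-rat, 0 and 3 for the guinea pig, and 11 and 25 for the mouse, where heart had 17 without the list of 6837.

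**Figure D1:**
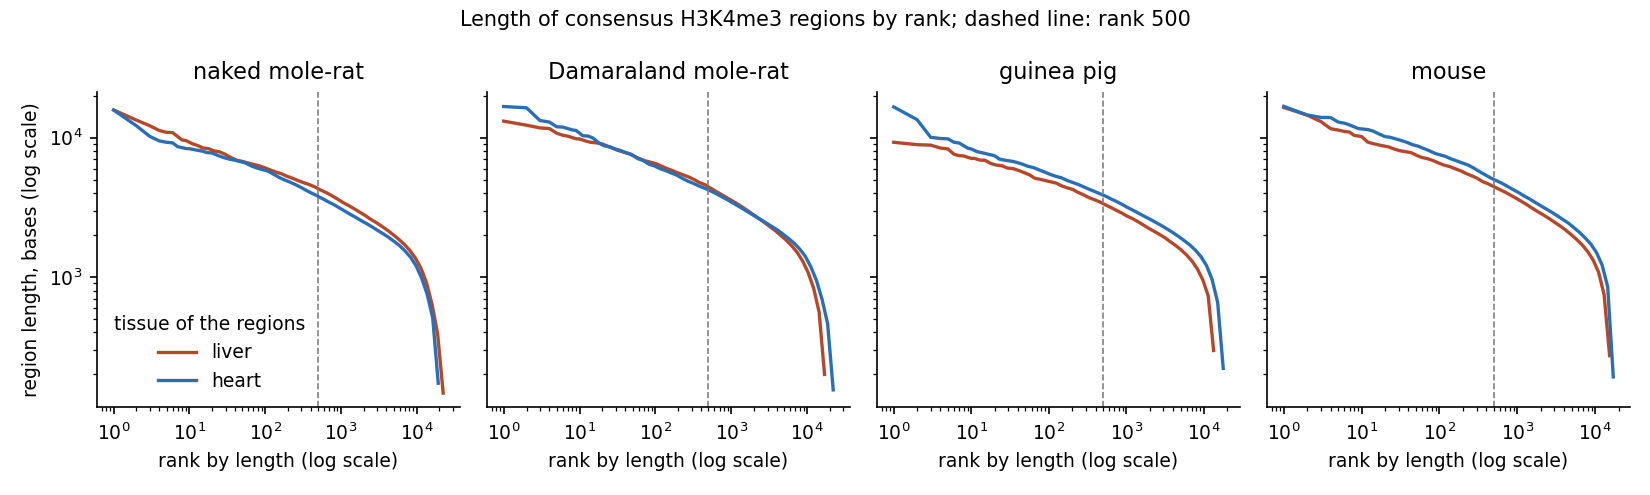
Length of each consensus H3K4me3 region (y axis, bases, log scale) against its rank by length (x axis, log scale) in 4 species, with liver in red and heart in blue and rank 500 as a dashed line. All libraries are included; the curves pass rank 500 between 3366 bases in guinea pig liver and 5006 bases in mouse heart without a step.

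How many domains were long in every single library differed between the groups, which also differ in their number of libraries. In guinea pig heart 470 of 500 domains reached 50% of their consensus length in each of the 3 libraries, and in guinea pig liver 442 did. The counts were 440 in mouse liver and 439 in Damaraland mole-rat liver. They were 316 in naked mole-rat liver, 192 in mouse heart, 153 in Damaraland mole-rat heart and 113 in naked mole-rat heart. Without the list of 6837 the mouse heart count was 247. The 3 lowest counts went with a list in which the domains were short: their median length was 1611.5 bases in naked mole-rat heart NMR34 against 3429.5 to 4677.5 in the other 3 libraries, 2078 in Damaraland mole-rat heart DMR11 against 3819 to 4689.5, and 2860.5 in mouse heart 6839 against 3837.5 to 6046.5. A peak was present in every library at 96.2 to 100% of the domains of a group.

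The H3K4me3 fold over background, the peak caller's own ratio for the highest peak in a region, was larger at the domains than at the remaining regions in each of the 32 libraries. A longer region can hold more peaks, so its highest peak can be larger by length alone. Remaining regions with no peak in a library were left out of that library's median, and domains with none were kept. In naked mole-rat liver NMR35 the median was 119 at the domains against 32.7 at the rest. In naked mole-rat heart NMR34 it was 10.7 against 7.61, the lowest level of any library. In Damaraland mole-rat liver the 2 libraries gave 41.01 against 17.5 and 108 against 37.6.

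Individual domains show the range. Of the 24 domains at ranks 1 to 3 of the 8 groups, 16 overlapped one of the 500 longest of the other tissue, 5 had another region there and 3 had none, with or without the list of 6837. Among those with none, 1 was the mitochondrial scaffold of Damaraland mole-rat heart. No gene is named, because no annotation of these builds was used here. The longest domain of the naked mole-rat was at the same place in both tissues, JH166853.1:1613136-1628924 in liver and JH166853.1:1613168-1628927 in heart (build HetGla_1.0), with 15789 and 15760 bases. There the H3K4me3 region was 13762, 15853, 15766, 8025 and 7184 bases long in the 5 liver libraries and 6566, 9508, 6243 and 1747 in the 4 heart libraries. H3K27ac covered 69.3% ± 7.91 (SD, n = 5) of the liver region in liver and 53.0% ± 18.5 (n = 3) in heart, and the 2 ranges overlapped.

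Other long domains had little or no H3K4me3 and no H3K27ac in the other tissue. The third longest of naked mole-rat liver, JH173299.1:311531-323696, was 5513, 12098, 5140, 6938 and 4642 bases long in the liver libraries and had no H3K4me3 peak in any of the 4 heart libraries. H3K27ac covered 87.5 to 93.9% of it in liver and 0% in all 3 heart libraries. The second longest, JH169539.1:349470-362820, had H3K27ac over 86.8% ± 3.32 (SD, n = 5) in liver and 0% in heart, where its H3K4me3 region measured 941 bases. In naked mole-rat heart the longest domain with no liver region was JH166743.1:205902-214516, with 93.3% ± 1.61 (SD, n = 3) H3K27ac cover in heart and 0% in the 5 liver libraries. Liver library NMR30 had an H3K4me3 peak of 285 bases there.

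In Damaraland mole-rat heart the longest domain of all, KN122898.1:688707-705425 (build DMR_v1.0), measured 16719 bases. It was 17083, 6100, 10981, 10759 and 4309 bases long in the 5 heart libraries and had no peak in either liver library. H3K27ac covered 75.5% ± 12.5 (SD, n = 5) of it in heart and 0% in the 5 liver libraries. The longest domain of Damaraland mole-rat liver, KN123370.1:4616915-4630042, was in contrast shared: it ranked 9 in heart, and H3K27ac covered 92.1% ± 1.26 in liver and 87.4% ± 5.51 in heart (SD, n = 5 each). The longest liver domain with no heart region, KN123945.1:2043055-2054672, had 93.4% ± 6.58 H3K27ac cover in liver and 0% in the 5 heart libraries.

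In the guinea pig (build Cavpor3.0) the longest liver domain, DS562885.1:10846910-10856170, was longer still in heart, where it ranked 5 with 9800 bases. The longest heart domain, DS562865.1:43161438-43178047, measured 16531, 9971 and 9134 bases in the heart libraries and 8421, 7428 and 6516 in the liver libraries. DS562869.1:8116983-8124406 was the longest liver domain with no heart region. It measured 7869, 7424 and 5389 bases, with H3K27ac over 93.1% ± 2.38 (SD, n = 3) in liver and 0% in heart. Its heart counterpart, DS562930.1:4576192-4584017, had 74.2% ± 10.6 in heart and 0% in liver.

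In mouse liver (build GRCm38) the domain at 19:5834242-5850702 was the longest, with 16461 bases. The domain at 2:164431734-164444778 was 12395, 12808, 8134 and 13004 bases long in the 4 liver libraries. Of the heart libraries 5 had 1079 to 2655 bases there and the library labelled heart 6837 had 7015. The longest liver domain with no heart consensus region, 5:89451682-89459621, was 6746, 6598, 5088 and 7823 bases long in liver and had no peak in 5 heart libraries, while the library labelled heart 6837 had a region of 8290 bases. H3K27ac covered 87.6% ± 4.25 of it in liver (SD, n = 4) and 0% in all 6 heart libraries, that of animal 6837 included.

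The longest mouse heart domain, 15:85665281-85682049, measured 13406 bases in the pool and 4533 to 8142 in the other 5 libraries. Without the list of 6837 its region was 13406 bases long and still ranked 1. The longest heart domain with no liver region, 5:119830610-119839969, was covered by H3K27ac to 11.4 to 90.6% in the 6 heart libraries and to 0% in the 4 liver libraries. Its H3K4me3 length ranged from 1594 bases in the pool to 9174 in the library labelled heart 6837. Without that list the longest such domain was 12:37103770-37113097, with 73.6% ± 9.81 (SD, n = 6) H3K27ac cover in heart and 0% in liver.

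A pair of domains stood apart in what they held. The second longest region of Damaraland mole-rat heart was the mitochondrial scaffold, positions 1 to 16372. Its H3K4me3 length was 16263, 16372, 10325, 1791 and 0 bases in the 5 heart libraries and 218 and 0 in liver, and factor peaks at least 5 kb wide lay there in 5 of 9 factor libraries. H3K27ac covered 11.4% ± 25.5 of it in heart and 13.5% ± 30.3 in liver (SD, n = 5 each), with a lowest library of 0% in both. This scaffold was kept in the counts of its group, and whether its peaks reflect histone marks was not tested. With mitochondrial peaks left out, 99.8% of the domains of Damaraland mole-rat heart were kept. The third longest of naked mole-rat heart, JH168664.1:373969-384175, held factor peaks of that width in 7 of 8 factor libraries. It overlapped the domain of rank 11 in liver, JH168664.1:375004-384038, which held them in the same number. These domains were singled out after their values were seen, and every other domain held such peaks in at most 2 factor libraries.

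H3K27ac peaks were not used to choose the domains, and they covered more of them in their own tissue than in the other. The choice did rest on H3K4me3 of the own tissue alone. The remaining regions, found in that tissue too, also had more own-tissue cover in every group. In guinea pig liver this was 91.4% against 72.4%, and in guinea pig heart 67.7% against 67.2%. For each library the cover is the mean, over the 500 domains, of the percent of a domain's bases inside H3K27ac peaks. Naked mole-rat liver domains were covered to 74.99, 75.03, 76.4, 80.4 and 82.3% by the 5 liver libraries and to 41.7, 41.9 and 44.0% by the 3 heart libraries. Damaraland mole-rat liver domains were covered to 78.7 to 91.3% by the liver libraries and 22.9 to 46.9% by the heart libraries. Guinea pig liver domains were covered to 96.9, 97.2 and 97.5% in liver and to 52.1, 56.6 and 57.4% in heart. Mouse liver domains were covered to 86.4, 87.5, 89.5 and 90.05% in liver and to 47.4 to 58.7% in heart. In all 4 species the lowest liver library was above the highest heart library.

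Heart domains showed the mirror pattern, with no overlap between the tissues in any species. Naked mole-rat heart domains were covered to 72.9, 73.6 and 76.5% by heart libraries and to 40.3 to 50.2% by liver libraries. Damaraland mole-rat heart domains were covered to 55.6, 70.9, 73.8, 79.8 and 81.4% in heart, the lowest being DMR1, and to 38.7 to 54.4% in liver. Guinea pig heart domains were covered to 80.3, 87.4 and 89.7% in heart and to 67.5, 71.6 and 73.7% in liver. Mouse heart domains were covered to 71.5 to 86.3% in heart and to 60.6 to 66.1% in liver. Without the H3K4me3 list of 6837 these ranges were 76.2 to 89.8% and 53.0 to 59.6%.

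The difference in cover, own tissue minus other tissue, was 35.3 percentage points in naked mole-rat liver domains and 30.02 in heart domains, 44.8 and 28.0 for the Damaraland mole-rat, 41.8 and 14.9 for the guinea pig, and 36.4 and 13.9 for the mouse. The heart value was the smaller one in each species, a contrast that was not tested. A two-sided exact permutation test over libraries, adjusted by Benjamini-Hochberg over 8 comparisons, gave adjusted p-values of 0.0238 for both naked mole-rat sets and 0.0159 for both sets of the Damaraland mole-rat and of the mouse. In the guinea pig 3 against 3 libraries allow no exact p below 0.1, and both sets reached that value. Without the list of 6837 the mouse heart difference was 25.3 points (exact permutation test, adjusted p = 0.0159). Some mole-rats gave both tissues. With the animal as a replicate block, the differences were 37.2 and 27.8 points over 3 naked mole-rats and 45.7 and 27.1 over 4 Damaraland mole-rats, which allow no adjusted exact p below 0.25.

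**Figure D2:**
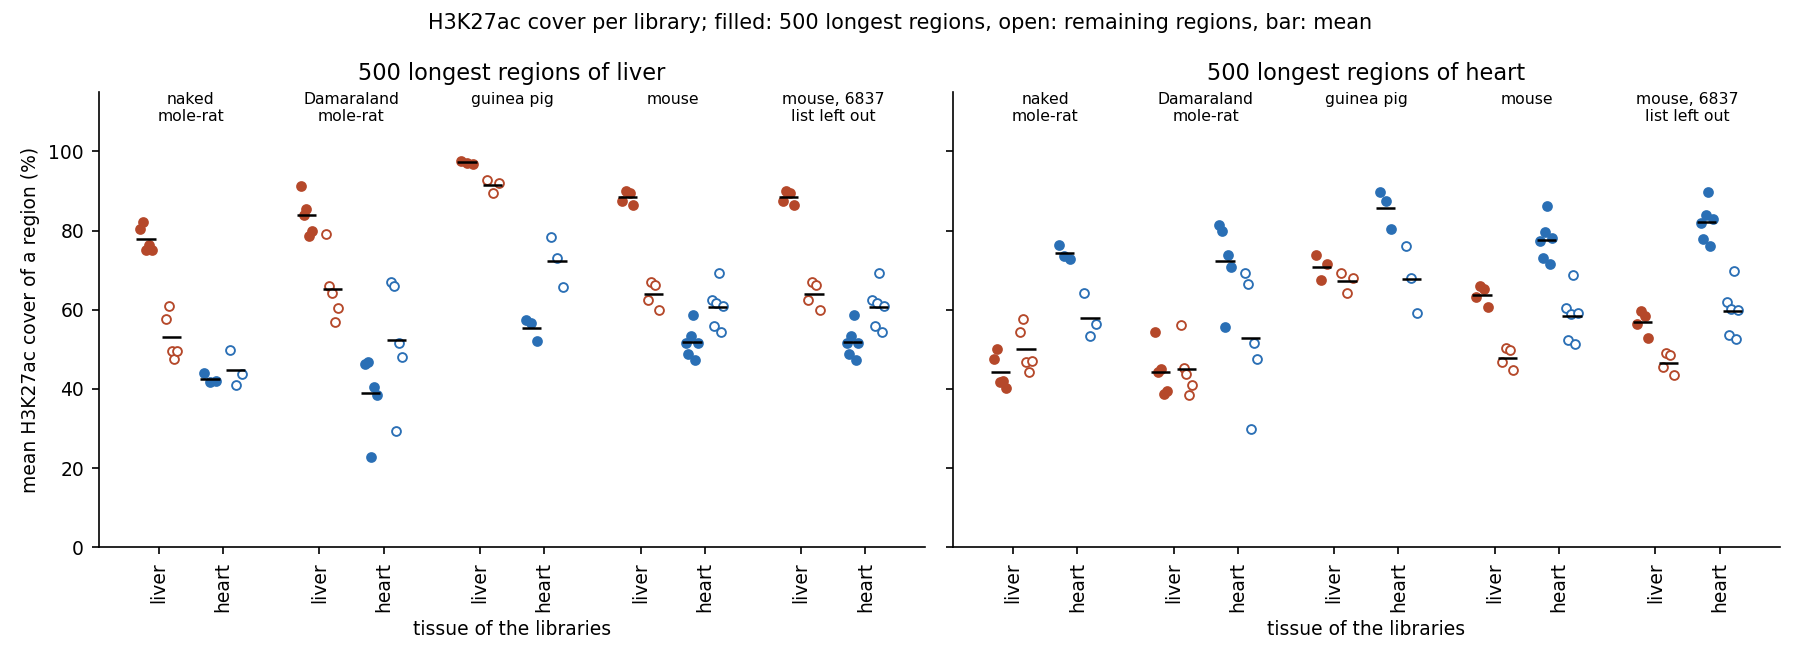
Mean H3K27ac cover in percent (y axis) of the 500 longest H3K4me3 regions (filled points) and of the remaining regions (open points), 1 point per library, for domains of liver (left) and heart (right); liver libraries are red, heart libraries blue, and bars are means. Filled points of the own tissue lie above those of the other tissue in every species, and the last column repeats the mouse with the H3K4me3 list of 6837 left out, where own-tissue cover of the heart domains starts at 76.2%.

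The remaining regions show how much of this follows from the libraries themselves. In the tissue of the domains, H3K27ac covered more of the domains than of the remaining regions in every library. This excess was 24.8 ± 2.92 percentage points in naked mole-rat liver (SD, n = 5), 16.3 ± 4.07 in naked mole-rat heart (n = 3), 18.5 ± 3.79 and 19.4 ± 6.17 in the Damaraland mole-rat (n = 5 each), 5.79 ± 1.53 and 18.04 ± 3.90 for the guinea pig (n = 3 each), and 24.5 ± 1.57 and 19.2 ± 1.66 for the mouse (n = 4 and 6). Guinea pig liver had the smallest excess beside the highest cover of the remaining regions, 91.4%. Exact sign-flip tests over so few libraries gave adjusted p-values of 0.125 to 0.25, and none passed; each unadjusted p was the smallest its number of libraries allows.

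In the other tissue the mean excess was below 0 in 6 of the 8 sets. It was −2.34 ± 3.17 points for naked mole-rat liver domains (SD, n = 3), −5.73 ± 2.03 for its heart domains (n = 5), −13.4 ± 6.15 and −0.570 ± 1.24 in the Damaraland mole-rat (n = 5 each), −17.1 ± 3.64 in guinea pig liver domains (n = 3) and −8.85 ± 1.74 in mouse liver domains (n = 6). It stayed positive in guinea pig heart domains, at 3.74 ± 0.619 (n = 3), and in mouse heart domains, at 15.9 ± 0.453 (n = 4), or 10.2 ± 0.618 without the list of 6837.

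The difference of this excess between the tissues was 27.1 and 22.0 points in liver and heart domains of the naked mole-rat (exact permutation test, adjusted p = 0.0238 each), 31.9 and 20.0 for the Damaraland mole-rat and 33.3 and 3.25 in the mouse (adjusted p = 0.0190 each). In the guinea pig it was 22.8 and 14.3, at the floor of 0.1. The value in mouse heart rested on single libraries. It was 12.3 without the H3K4me3 list of 6837 (adjusted p = 0.0159, exact permutation test) and −2.43 without all libraries of the pool (adjusted p = 0.1). With 1000 instead of 500 regions it was −0.292. Over animals with both tissues, the replicate block gave 26.7 and 21.9 points in the naked mole-rat and 32.6 and 18.7 for the Damaraland mole-rat, again at an adjusted p of 0.25.

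Domain by domain, the liver and heart libraries often did not overlap at all. In naked mole-rat liver 308 of 500 domains (61.6%) had more H3K27ac cover in every liver library than in every heart library, against 20.3% of all its regions. In naked mole-rat heart 302 (60.4%) were higher in every heart library, against 20% of all regions. The counts were 321 (64.2%) against 20.3% in Damaraland mole-rat liver, 214 (42.8%) against 11.4% in its heart, 392 (78.4%) against 44.9% in guinea pig liver and 186 (37.2%) against 14.8% in its heart. In mouse liver they were 298 (59.6%) against 21.3%. In mouse heart they were 226 (45.2%) against 22.3%, and 276 (55.2%) against 23% without the list of 6837.

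Far fewer domains went the other way, with less cover in every library of their own tissue. These were 48 domains (9.6%) against 10.2% of all regions in naked mole-rat liver and 22 (4.4%) against 7.9% in its heart. There were 9 (1.8%) against 3.18% in Damaraland mole-rat liver and 10 (2%) against 4.35% in its heart. Guinea pig liver had 1 (0.2%) against 1.5% and guinea pig heart 74 (14.8%) against 25.2%. Mouse liver had 39 (7.8%) against 16%. Mouse heart had 82 (16.4%) against 10.7% with all libraries, the only set above its background. Without the list of 6837 mouse heart had 15 (3%) against 7.64%. In liver of both mole-rats the share was near that of all regions. The share of all regions lay inside the 95% Wilson interval, 7.32 to 12.5% in the naked and 0.95 to 3.39% in the Damaraland mole-rat. Both intervals cover counting error only. Few domains lacked the mark: cover in the own tissue averaged under 10% at 0 to 6 domains of a group, against 0.788 to 16.5% of the remaining regions.

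Cover changed step by step with rank rather than at rank 500. In Damaraland mole-rat liver, own-tissue H3K27ac cover was 83.8% at ranks 1 to 500, 81.9% over the next 500 ranks, 79.3% from there to rank 2000, 72.2% on to rank 5000 and 61.7% beyond. The share of regions above every heart library fell over the same steps from 64.2 to 55.4, 44.0, 23.1 and 14.2%. Naked mole-rat heart went from 60.4 to 46.2, 34.5, 22.2 and 16.1%, and guinea pig heart from 37.2 to 33.0, 22.8, 15.0 and 12.5%. All 8 groups fell at each step in this share. Within the 500 domains, length and own-tissue cover were nearly unrelated: Spearman's rho was between 0.0138 and 0.145 over the 500 domains of a group, which share their libraries.

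**Figure D3:**
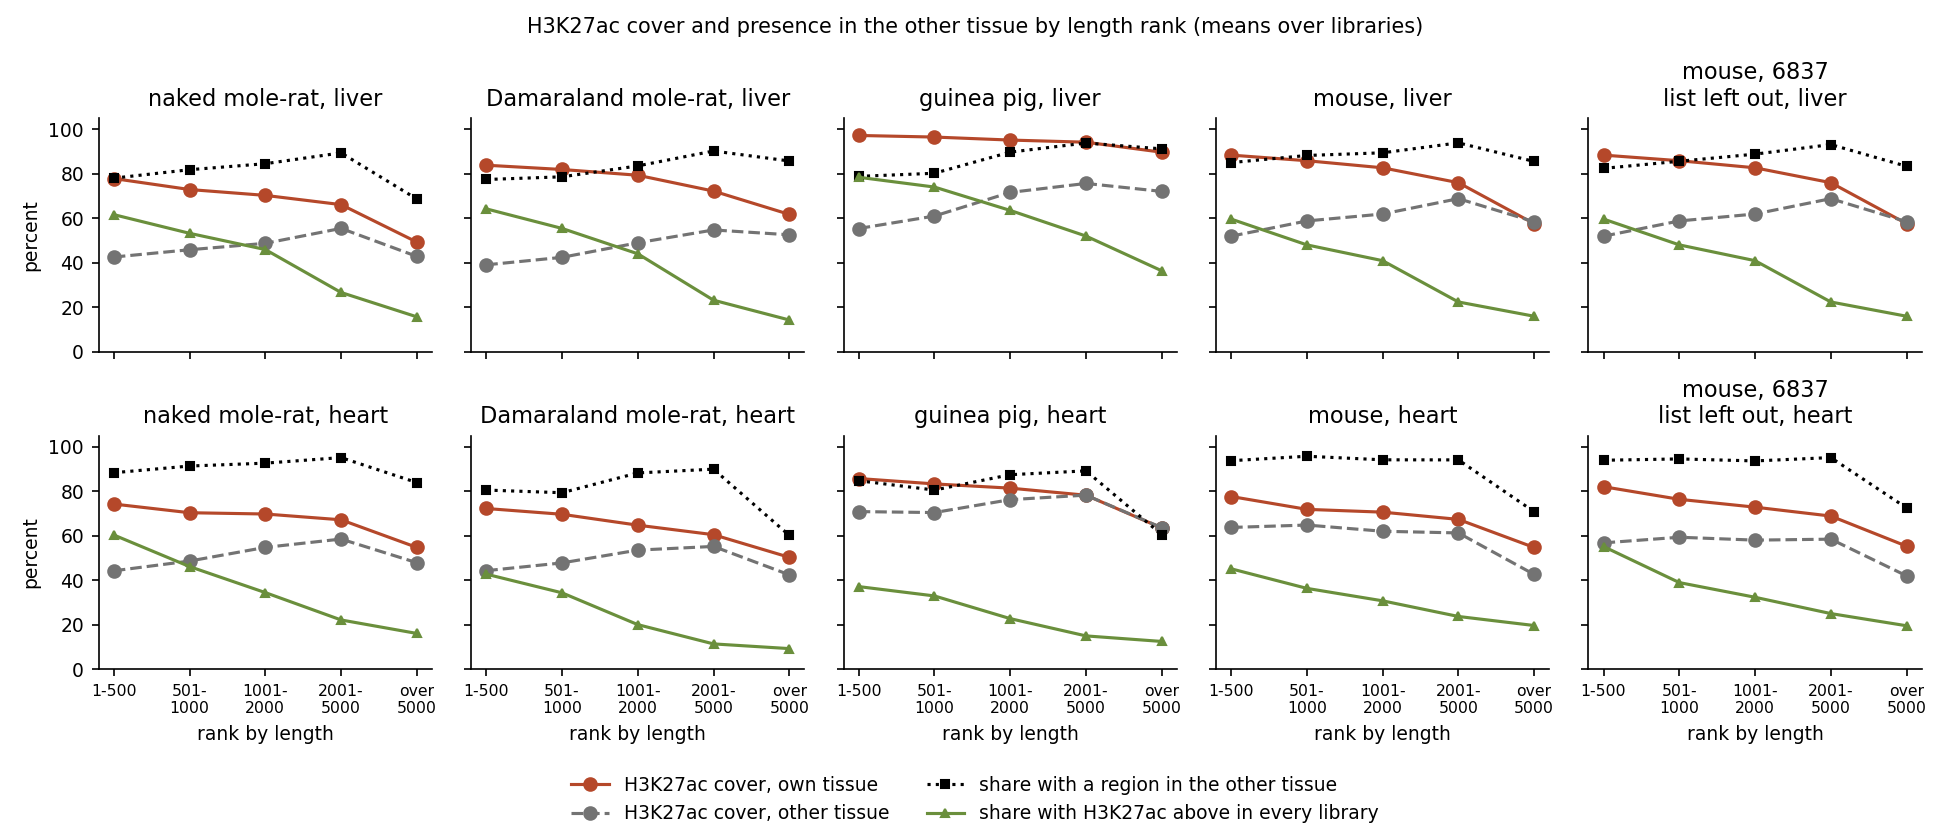
Percent (y axis) by band of length rank (x axis) for liver (top) and heart regions (bottom) of each species and for the mouse without the H3K4me3 list of 6837: mean H3K27ac cover in the own (red) and the other tissue (grey), share of regions with a consensus H3K4me3 region in the other tissue (black) and share whose H3K27ac cover was higher in every own-tissue library than in every other-tissue library (green). The green line falls at each step in every panel, from 61.6% to 15.7% in naked mole-rat liver.

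Most long domains carried H3K4me3 in the other tissue too, usually over a shorter stretch. In naked mole-rat liver 390 domains (78%) overlapped a heart region, against 72.6% of all liver regions, and in its heart 442 (88.4%) against 86.5%. The shares were 77.4% against 85.9% and 80.6% against 66.5% in liver and heart of the Damaraland mole-rat, and 78.8% against 90.8% and 84.8% against 68.2% in the guinea pig. Mouse liver had 85% against 87.5%, and 82.4% against 85.6% without the list of 6837. Mouse heart had 93.8% against 77.7%, and 94% against 79.3% without it. In naked mole-rat heart and in mouse liver with all lists, the share was near that of all regions, which lies inside its 95% Wilson interval of 85.3 to 90.9% and 81.6 to 87.9%. These intervals cover counting error only. Of the other 6 groups, naked mole-rat liver and the heart sets of the other 3 species were above their background, and the liver sets of the Damaraland mole-rat and guinea pig below it.

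Overlap with one of the 500 longest of the other tissue was far more common among domains than among all regions, a count that length in both tissues fixes. It held for 152 liver and 153 heart domains of the naked mole-rat, against 2.14 and 2.35% of all regions. It held for 130 and 131 for the Damaraland mole-rat (2.63 and 2%) and for 153 and 153 of the guinea pig domains (3.55 and 2.38%). In the mouse it held for 224 and 224 (3.64 and 2.58%), and for 194 and 194 without the list of 6837 (3.54 and 2.63%).

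Where a domain had a region in the other tissue, the median length there was 3004.5 bases for naked mole-rat liver domains and 3816 for its heart domains, 3087 and 3635 for the Damaraland mole-rat, 3424 and 2832.5 for the guinea pig, and 5178 and 4379 for the mouse. The region of the other tissue was the longer one at 77 and 102 domains in the naked mole-rat, 77 and 54 for the Damaraland mole-rat, 148 and 25 for the guinea pig, and 202 and 44 for the mouse. The mouse values without the list of 6837 were 4499.5 and 4112 bases, with 142 and 57 domains longer in the other tissue. In mouse liver with all lists, the 202 domains longer in heart were 47.5% of the 425 that had a heart region. The domains were chosen by their length in the own tissue, which by itself favours a shorter region in the other. These lengths also follow the number of libraries in each consensus.

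Single libraries of the other tissue give a comparison that the choice of domains did not use. Their mean H3K4me3 length was 969 to 2651 bases at naked mole-rat liver domains against 342 to 1065 at the remaining regions, over 4 heart libraries. At guinea pig liver domains it was 2639, 2456 and 2688 bases against 1508, 1389 and 1546. The log2 ratio of domains over remaining regions was 1.39 ± 0.08 and 1.36 ± 0.05 for liver and heart domains of the naked mole-rat (SD, n = 4 and 5), 0.96 ± 0.04 and 1.503 ± 0.02 in the Damaraland mole-rat (n = 5 and 2), 0.81 ± 0.01 and 1.34 ± 0.02 for the guinea pig (n = 3 each), and 1.19 ± 0.21 and 1.64 ± 0.01 for the mouse (n = 6 and 4). Every library was above 0, so the mean H3K4me3 length in the other tissue was larger at the domains than at the remaining regions, by 1.75-fold to 3.12-fold. These means include regions with no overlap, as having no length, and otherwise take the longest overlapping region. A longer region meets more regions by its length alone, so presence and region length also enter this ratio and were not separated from it. No set passed the exact sign-flip test, with adjusted p-values of 0.167 to 0.5. With so few libraries none could: each unadjusted p was the smallest its number of libraries allows.

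In the mouse the library labelled heart 6837 set the spread of the liver domains. Its H3K4me3 was 5318 bases long on average at liver domains, against 2034 to 3969 in the other 5 heart libraries, and its log2 ratio was 1.62 against 1.07 to 1.16. Without it the ratio was 1.10 ± 0.03 (SD, n = 5) for liver domains, and for heart domains 1.51 ± 0.01 (n = 4).

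Split by what the other tissue held, the domains differed in H3K27ac. Domains with no region in the other tissue numbered 110 and 58 in liver and heart of the naked mole-rat, 113 and 97 for the Damaraland mole-rat, 106 and 76 for the guinea pig, and 75 and 31 for the mouse. H3K27ac covered 71.4 to 97.7% of them in their own tissue, as means over libraries, and 2.05 to 16.6% in the other. In naked mole-rat heart all 58 were higher in every heart library, and in the other groups 88.7 to 100% were higher in every library of their own tissue, against 11.4 to 44.9% of all regions of a group. Most of all regions did have a region in the other tissue, so this background is not matched to domains picked for having none. The remaining regions were not split by what the other tissue held, so no class of domains has a matched share.

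Domains on the longest lists of both tissues had H3K27ac in both. Its cover was 69.0% in liver and 73.3% in heart for the 152 liver domains of the naked mole-rat, and 74.8% and 72.1% for the 130 liver domains of the Damaraland mole-rat. Of such domains 6.87% in Damaraland mole-rat heart to 45.8% in guinea pig liver were higher in every library of their own tissue, where 11.4 and 44.9% of all regions were. Domains with another region in the other tissue were the largest class except in mouse liver with all lists, with 238 and 289 in the naked mole-rat, 257 and 272 for the Damaraland mole-rat, 241 and 271 for the guinea pig, and 201 and 245 for the mouse. Their other-tissue cover, 37.7 to 73.8%, lay between that of the other 2 classes. Without the list of 6837 this class was the largest in mouse liver too, with 218 domains against 194 shared ones. Without that list the 30 mouse heart domains with no liver region had 75.3% in heart and 7.70% in liver, and the 194 shared ones 85.4% and 79.1%.

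Across the 500 domains of a group, the length in the other tissue went with the H3K27ac cover there. Spearman's rho was 0.588 in mouse heart to 0.871 in guinea pig liver. Domains with no region in the other tissue were included, as having no length. Over the 387 to 469 domains of a group present in both tissues, length in the own tissue was only weakly related to length in the other. There rho was between 0.0697 and 0.316. These are descriptions over domains measured in the same libraries.

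Long domains had more enhancers of their own tissue nearby than the remaining regions had. An active enhancer is here a consensus H3K27ac region that overlaps consensus H3K4me1 of that tissue by at least 50% of the shorter. It overlaps no consensus H3K4me3 region of that tissue by as much. Enhancers were counted within 50 kb of the edges. Domains had a median of 7 in naked mole-rat liver against 2 at the remaining regions, and 1 against 0 in its heart. The medians were 7 against 3 and 4 against 1 in liver and heart of the Damaraland mole-rat, 5 against 3 and 3 against 1 for the guinea pig, and 4.5 against 2 and 4 against 1 for the mouse. Without the list of 6837 the mouse heart median was 5 against 1. Regions of the next 500 ranks came close to the domains or passed them, so this was not particular to the 500 longest. Their mean was 4.84 in Damaraland mole-rat heart against 4.74 at the domains, and 5.37 against 5.50 in guinea pig liver. Domains had the higher mean in all groups but Damaraland mole-rat heart, as in naked mole-rat liver with 7.70 against 6.66. Enhancers of the other tissue were also more numerous near the domains, by the mean of every group. Naked mole-rat heart domains had a mean of 4.39 liver enhancers nearby against 3.65 at the remaining regions. That was more than their mean of 2.71 heart enhancers. Damaraland mole-rat heart domains had 4.81 liver and 4.74 heart enhancers.

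At least 1 such enhancer lay near 464 domains (92.8%) of naked mole-rat liver, against 72.1% of all its regions, and near 319 (63.8%) of its heart, against 43.1%. The shares were 95% against 80.5% and 80.6% against 64.4% in liver and heart of the Damaraland mole-rat. They were 95.6% against 80.4% and 76.8% against 57.2% for the guinea pig, and 91.8% against 68.9% and 87.8% against 64.4% for the mouse. A set with no enhancer near it remained in every group, from 22 domains in guinea pig liver to 181 in naked mole-rat heart, whose consensus held 15308 active enhancers against 47280 in liver. Length and the number of enhancers were nearly unrelated within the domains, with Spearman's rho between 0.0229 and 0.134.

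Distal H3K27ac peaks of single libraries, those outside every consensus H3K4me3 region of either tissue, gave the same picture. In naked mole-rat heart the 3 heart libraries had 11.05, 11.96 and 13.4 such peaks within 50 kb of a domain on average and 5.16, 5.67 and 6.31 near a remaining region. In guinea pig liver the 3 liver libraries had 12.4, 12.4 and 13.0 against 7.35, 6.69 and 7.47. The log2 ratio of domains over remaining regions was positive in each own-tissue library and averaged 0.81 in guinea pig liver to 1.11 in mouse heart, which is 1.76-fold to 2.15-fold. It was also positive in each library of the other tissue, with means of 0.25 to 0.83.

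Own-tissue libraries had the higher log2 ratio in every set, with no overlap between the tissues. The difference was 0.64 and 0.82 in liver and heart domains of the naked mole-rat (exact permutation test, adjusted p = 0.0238), 0.71 and 0.56 for the Damaraland mole-rat and 0.58 and 0.27 in the mouse (adjusted p = 0.0159). In the guinea pig it was 0.56 and 0.47, at the floor of 0.1. Without the list of 6837 the mouse heart difference was 0.47 (exact permutation test, adjusted p = 0.0159). The replicate block gave 0.60 and 0.82 in the naked mole-rat and 0.72 and 0.55 for the Damaraland mole-rat (exact sign-flip test, adjusted p = 0.25, the smallest it can give).

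**Figure D4:**
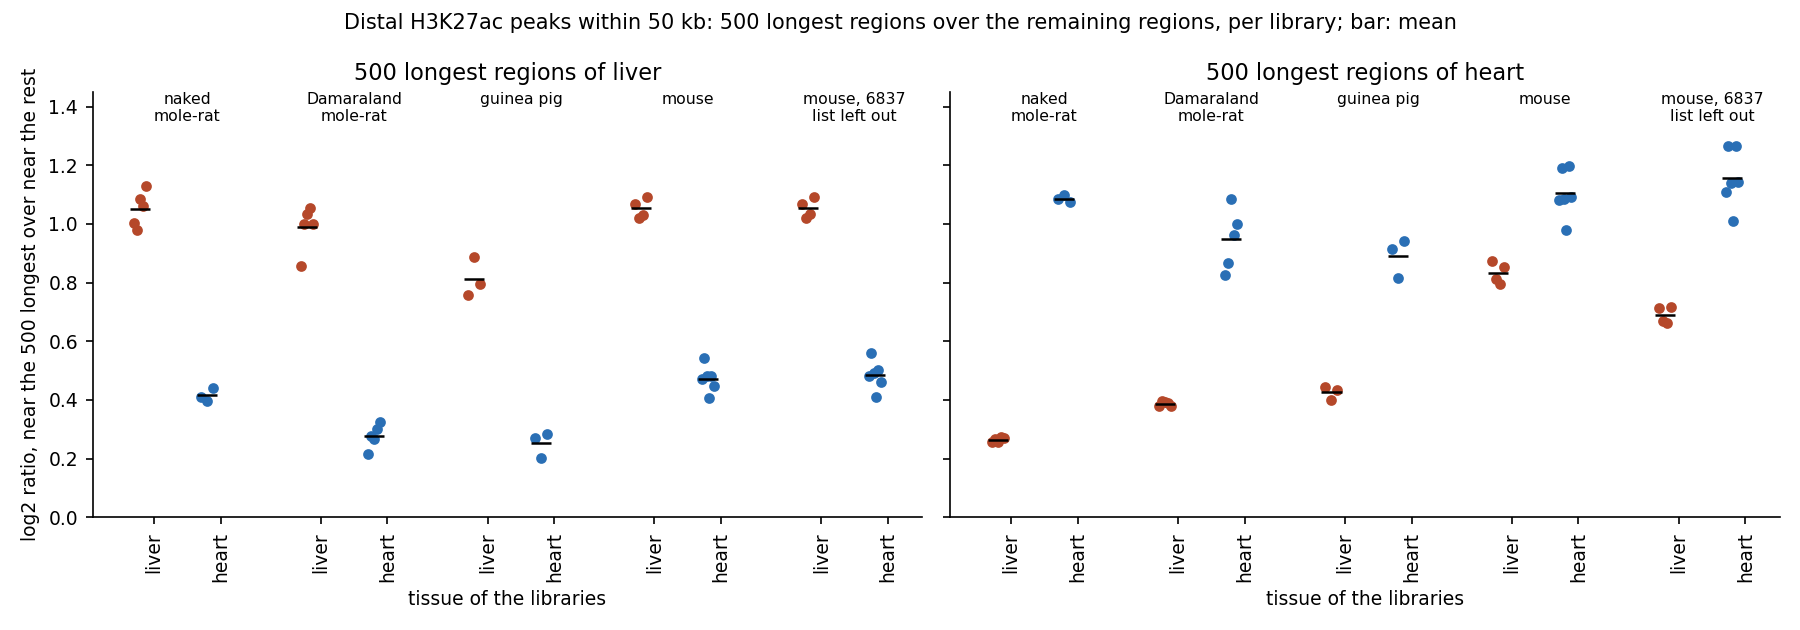
Log2 ratio (y axis) of the mean number of distal H3K27ac peaks within 50 kb of the 500 longest H3K4me3 regions over that near the remaining regions, 1 point per library, with liver libraries red, heart libraries blue and bars as means. Own-tissue libraries lie above those of the other tissue in each species, by 0.27 in mouse heart domains with all lists and 0.47 with the list of 6837 left out.

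The libraries of every species belong to different library series, read from the first letters of the library names. With differences taken within a series, the cover differences were 34.6 points in naked mole-rat liver domains and 31.1 in heart domains, the excess differences 28.4 and 20.8, and the distal peak differences 0.64 and 0.82, each with an adjusted p of 0.0556 (exact permutation within series). In each of these results 4 of the 8 comparisons still passed, those of the Damaraland mole-rat and the mouse. The mouse H3K27ac libraries all share the same series.

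H3K4me1 lay beside the long domains more than inside them. In their own tissue the 2 kb outside each edge had more H3K4me1 cover than the inside in 27 of 33 libraries, while at the remaining regions this held in 3 of 33, all of guinea pig liver. In guinea pig liver the 3 libraries covered 66.7, 62.5 and 53.9% of the flanks and 26.7, 16.8 and 17.1% of the inside. In Damaraland mole-rat liver the means were 50.6% ± 10.2 in the flanks and 24.3% ± 7.79 inside (SD, n = 5), and in naked mole-rat heart 13.2% ± 7.12 and 7.33% ± 3.77 (n = 3). In the mouse the difference was small: 41.5% ± 4.16 and 43.3% ± 3.90 in liver (n = 4), with the flanks higher in 3 libraries. In mouse heart they were 25.2% ± 13.1 and 27.5% ± 14.9 (n = 5), with the flanks higher in none, and in 3 of 5 without the H3K4me3 list of 6837. H3K27ac had no library of 34 with more cover in the flanks than inside. The flank comparison was added after other results of these lists were known and has no test.

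**Figure D5:**
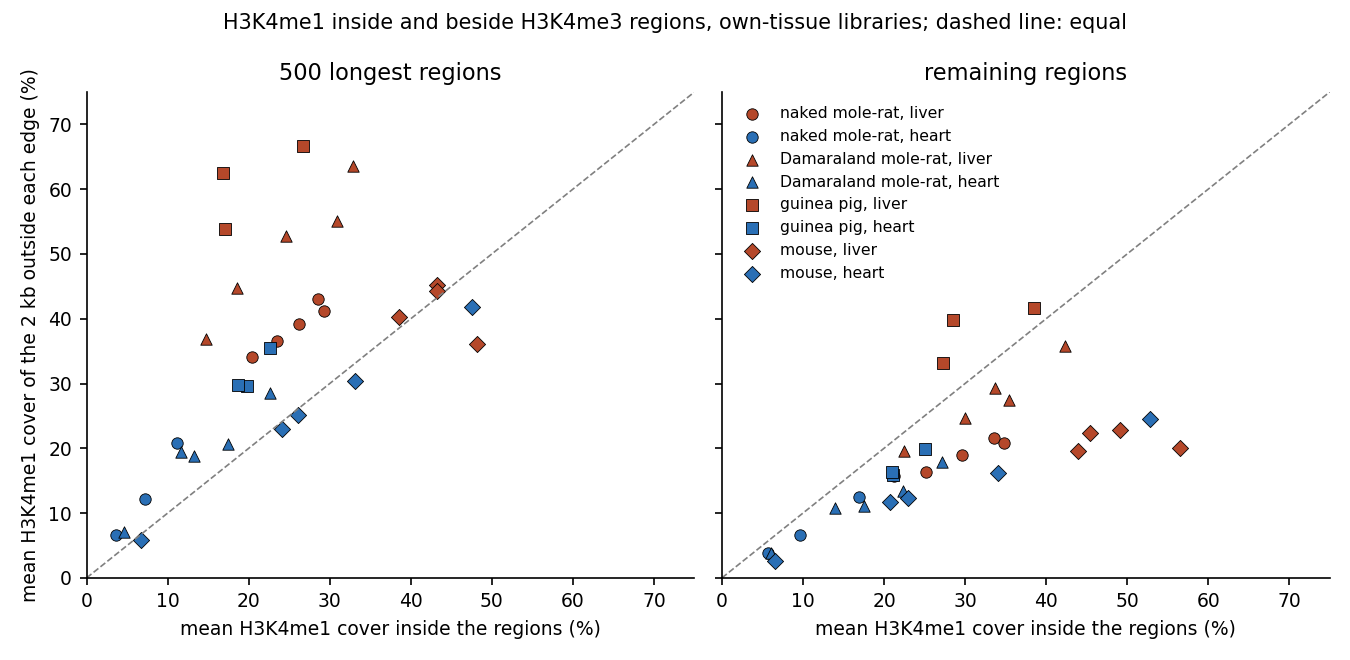
Mean H3K4me1 cover of the 2 kb outside each edge (y axis, %) against that inside (x axis, %) for the 500 longest H3K4me3 regions (left) and the remaining regions (right), 1 point per own-tissue library, with species by marker shape, liver red, heart blue and a dashed line of equal cover. At the long domains 27 of 33 points lie above the line and at the remaining regions 3 of 33; all lists are included.

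Inside the domains, H3K4me1 cover did not follow the tissue of the domains. Own-tissue minus other-tissue cover was 16.0 points in naked mole-rat liver domains and −14.6 in heart domains, 12.2 and −11.7 for the Damaraland mole-rat, 5.68 and −16.5 for the guinea pig, and 23.3 and −15.6 for the mouse, so liver libraries had more cover in both sets of every species. By exact permutation test with Benjamini-Hochberg adjustment, 4 of the 8 passed: both naked mole-rat sets, Damaraland mole-rat heart and mouse liver (adjusted p = 0.0357 each). With the cover of the remaining regions subtracted, a choice made after this was seen, the differences were −11.8 to 1.39 and none passed. With the replicate block, which the mouse does not have, the 3 mole-rat calls were lost, at 14.5 and −13.3 points in the naked mole-rat and −10.1 in Damaraland mole-rat heart (exact sign-flip test, adjusted p = 0.25). Within library series the mouse liver call was lost too, at 22.9 points (exact permutation within series, adjusted p = 0.107). Damaraland mole-rat heart also lost its call with a stricter q-value, with 1000 regions or with an overlap of 1 base, at −11.4, −10.8 and −11.2 points. Against the remaining regions in the own tissue, domains had −11.2 to 0.0836 points, below 0 in each library of 7 sets. Mouse heart was the exception, with 3 of 5 libraries above 0, and its mean was −0.494 without the list of 6837. None passed the exact sign-flip test (adjusted p = 0.167 to 0.938), and with so few libraries none could.

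Peaks of 5 liver transcription factors and of TBX5, mapped in the mole-rats only, were found in a larger share of long domains than of the remaining regions in all 34 pairs of a factor library and a set. In naked mole-rat liver, RXRA peaks of animals NMR30 and NMR35 lay in 59.4 and 83.4% of the domains, against 16.5 and 37.4% of all regions. FOXA1 peaks lay in 57.2 and 59.8% against 11.9 and 12.7%. HNF4A peaks lay in 40.8 and 67.4% against 6.91 and 22.4%, and CEBPA peaks in 82 and 71.4% against 34.2 and 26.7%. Of the naked mole-rat heart domains, RXRA peaks lay in 35.2 and 61.8% against 13.9 and 34.9% of all heart regions, FOXA1 in 34 and 31% against 9.13 and 8.01%, HNF4A in 25.2 and 49.8% against 5.84 and 18.9%, and CEBPA in 56.8 and 45.4% against 29.7 and 22.1%. The difference between the liver and the heart set was not tested.

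In Damaraland mole-rat liver, RXRA peaks of DMR1 and DMR4 lay in 64.6 and 92.8% of the domains, against 21.3 and 52.1% of all regions. FOXA1 peaks lay in 32.4 and 37.6% against 8.01 and 9.17%, and CEBPA peaks in 50.6 and 82.8% against 13.7 and 35.2%. The single libraries gave 41.4% against 11.3% for HNF6 of DMR1, 75.2% against 37.1% for HNF4A of DMR4, and 39% against 14.4% for the heart factor TBX5 of DMR6. In Damaraland mole-rat heart, TBX5 peaks lay in 48.2% of the domains against 14.5% of all regions. RXRA peaks lay in 27.8 and 60.6% there against 11.7 and 35%, FOXA1 peaks in 12.2 and 22.6% against 3.73 and 4.81%, and CEBPA peaks in 22.2 and 47.4% against 7.57 and 22.2%. HNF6 peaks lay in 23.8% against 7.37% and HNF4A peaks in 52.8% against 25.8%.

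A longer region holds more peaks by its length alone, so peaks were also counted per 10 kb. Naked mole-rat liver domains then exceeded the remaining regions in all 8 libraries, by 1.07-fold for RXRA of NMR35 to 2.42-fold for HNF4A of NMR30, with FOXA1 at 2.21-fold and 2.25-fold. Naked mole-rat heart domains exceeded them in 4 of 8, both of FOXA1 and both of HNF4A, and were lower for RXRA and CEBPA (0.783-fold to 0.946-fold). Damaraland mole-rat liver domains exceeded them in 7 of 9, FOXA1 at 1.73-fold and 1.74-fold, the exceptions being HNF4A of DMR4 at 0.948-fold and TBX5 at 0.977-fold. In Damaraland mole-rat heart domains 5 of 9 did, with TBX5 at 1.28-fold and FOXA1 at 1.18-fold and 1.81-fold. With 1 or 2 libraries per factor these values have no test.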

How the data were processed

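ChIP-seq peak lists of 116 libraries were used: 99 of histone marks and 17 of transcription factors. The other 44 of 160 samples were not analysed here. Peaks were called with MACS2, per the submitters' processing notes, 1 list per library against 1 input, per the file names, on the builds GRCm38, HetGla_1.0, DMR_v1.0 and Cavpor3.0. The deposited lists give for each peak the fold over background, a ratio, and the −log10 of its p-value and q-value. The sources used here name no aligner, caller version or setting. With no counts, no interval for depth can be given.

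Per library, overlapping peaks were merged. Consensus regions, the 500 longest of each group, H3K27ac and H3K4me1 cover, and peaks within 50 kb were computed in Python 3.11.15 using SciPy 1.17.1, pandas 2.3.3 and NumPy 2.4.6; plots used Matplotlib 3.10.9. Tests were two-sided exact permutation or sign-flip tests over libraries, with Benjamini-Hochberg adjustment over 8 comparisons in each of 8 families, 64 in all, at 0.05. The scripts were tested on simulated data. The labels give separate animals, so p-values measure the spread between animals and libraries. Liver and heart libraries of 1 animal are paired by that animal in the mole-rats and the guinea pig and not in the mouse. The deviations of paired libraries from their group means correlated between −0.96 and 0.986 over the results tested, with 3 or 4 pairs each. The regions named are the 3 longest of a group, the longest with no region in the other tissue, the longest that overlaps one of the 500 longest of the other tissue, and the regions at rank 500 and the next rank, unless stated otherwise. The domains, lists and tests were chosen with earlier results of these data known. Not every region that this rule names is printed. Planned gene and marker lists were not used, since no annotation of these builds was used here. 1 sample whose labels disagree on its species was left out of all groups.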

Additional observations from a re-analysis of the deposited data

Results flagged for a closer look

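In 70 groups of 4 to 10 libraries, the highest or lowest library was compared with the others; 3 groups held a library far from the rest, and chance alone marks about 1 in 20 groups. Liver library DMR2 was the lowest of 5 for distal H3K27ac peaks near Damaraland mole-rat liver domains, with a log2 ratio over the remaining regions of 0.86 against 1.00 to 1.06 in the others. The library labelled mouse heart 6837 was the highest of 6 in H3K4me3 length at the domains over the remaining regions. Its log2 ratio was 1.62 at liver domains, against 1.07 to 1.16, and 1.91 at heart domains, against 1.72 to 1.79. It is the library whose peaks went against its label, and the cause was not tested.

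Liver and heart libraries differed beyond the exact permutation test's threshold in the excess of H3K27ac cover of the domains over the remaining regions. The difference, own minus other tissue, was 27.1 points in naked mole-rat liver domains, 22.0 in naked mole-rat heart, 31.9 in Damaraland mole-rat liver, 20.0 in Damaraland mole-rat heart, 33.3 in mouse liver and 3.25 in mouse heart. They differed likewise in the log2 ratio of distal H3K27ac peaks, by 0.64, 0.82, 0.71, 0.56, 0.58 and 0.27 in the same order. The mouse heart values were 12.3 points and 0.47 without the H3K4me3 list of 6837. The mouse heart difference in excess turned to −2.43 points without the pool (exact permutation test, adjusted p = 0.1) and to −0.292 with 1000 regions (adjusted p = 0.771, exact).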

How the results depend on the processing

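Between 62.4 and 85.6% of the domains of a group were kept with no joining and 68.8 to 92% with gaps up to 1000 bases joined, 69.2 to 100% on scaffolds reaching 1 Mb and 76 to 100% without 1 animal. The 100% is fixed for animals with no H3K4me3 list in the group. It is also fixed in Damaraland mole-rat liver, where both H3K4me3 lists stayed in the consensus whichever animal was left out. How that set depends on 1 animal was not tested. The mouse alternative without the list of 6837, the one without mitochondrial peaks and the one with H3K4me1 cover minus that of the remaining regions were chosen after seeing the data. The own-tissue H3K27ac excess, the own-tissue distal peak ratio and the H3K4me3 length ratio in the other tissue, none of which passed, kept their direction and their side of the threshold in all alternatives run.

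With the animal as a replicate block, possible in the mole-rats and the guinea pig, no result passed (adjusted p = 0.25 in exact tests, the smallest these pairs allow). The values for liver and heart domains were 37.2 and 27.8 points in H3K27ac cover, 26.7 and 21.9 in excess, 0.60 and 0.82 in distal peaks and 14.5 and −13.3 in H3K4me1 cover for the naked mole-rat. Those of the Damaraland mole-rat were 45.7 and 27.1, 32.6 and 18.7, and 0.72 and 0.55, with −10.1 for H3K4me1 in heart. Within library series, the naked mole-rat gave 34.6 and 31.1 points, 28.4 and 20.8, 0.64 and 0.82, and 13.9 and −13.0 for H3K4me1, Damaraland mole-rat heart −9.91 and mouse liver 22.9 for H3K4me1, none past the threshold.

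H3K4me1 cover minus that of the remaining regions differed by −3.59 and 0.168 points in liver and heart domains of the naked mole-rat, −5.95 and −0.564 for the Damaraland mole-rat, −11.8 and 1.39 for the guinea pig and −3.19 and 0.459 for the mouse. The Damaraland mole-rat heart difference was −11.4 with −log10 q of at least 4, −10.8 with 1000 regions and −11.2 with an overlap of 1 base. The mouse heart H3K4me1 excess was −0.898 with 1000 regions, −1.93 with no joining and −0.494 without the list of 6837. The mouse heart H3K27ac excess difference was −0.292 with 1000 regions.

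The share of domains higher in every own-tissue library was 59.8% in Damaraland mole-rat liver, 40.8% in mouse heart, 53.8% in mouse liver and 53.3% in naked mole-rat heart with 1000 regions. It was 42% in guinea pig heart and 66.8% in naked mole-rat heart with 250, 68.8% in Damaraland mole-rat liver with no joining and 55.2% in mouse heart without the list of 6837. The share with a region in the other tissue was 84.4% in Damaraland mole-rat heart with gaps up to 1000 bases. With no joining it was 76.6 and 68.4% in heart and liver of that species, 74.8% in guinea pig liver and 84.8 and 71.8% in naked mole-rat heart and liver.

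Leaving out 1 animal's library in a tissue gave these ranges. H3K27ac cover differed by 29.0 to 31.7 points in naked mole-rat heart and 34.4 to 36.0 in liver. Its excess differed by 20.9 to 24.3 and 25.3 to 28.6 there, and by −2.43 (without the pool) to 12.1 (without 6837) in mouse heart. Distal peaks differed by 0.75 to 0.83 and 0.59 to 0.66 in naked mole-rat heart and liver. These naked mole-rat calls were lost without any of the 3 heart libraries (adjusted p = 0.0635, exact). H3K4me1 cover differed by −13.5 to −9.43 in Damaraland mole-rat heart, 10.0 to 14.6 in its liver, −20.7 to −12.8 in mouse heart, 19.4 to 27.3 in mouse liver, −16.5 to −13.0 in naked mole-rat heart and 13.6 to 18.8 in its liver. The mouse heart H3K4me1 excess was −3.05 to 1.41. The share with a region in the other tissue was 81.2 to 85.8% in guinea pig heart. The share higher in every own-tissue library was 42.2 to 50.8% in Damaraland mole-rat heart, 34.6 to 43.6% in guinea pig heart, 77.6 to 82.6% in its liver, 40.4 to 55.4% in mouse heart and 60.4 to 66% in naked mole-rat heart.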
